A study of Mus musculus with 9 samples.

Results

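MHC class I antigen presentation genes were followed in bone marrow T-cells from mice with and without B-cell acute lymphoblastic leukemia (B-ALL). The 9 genes sought were H2-K1, H2-D1, B2m, Tap1, Tap2, Tapbp, Psmb8, Psmb9 and Nlrc5, and 4 of them, H2-K1, H2-D1, Tapbp and Psmb9, had a probe among the 785 probes that were counted. The other 5 were not analysed here. The 9 mice were wild-type C57BL/6 females, and T-cells were purified from their marrow on day 7 by a kit for all T-cells. In the first group, 3 mice had no leukemia and no treatment. In the second group, 3 mice had leukemia after transfer into the tail vein, without irradiation, of BCR-ABL1+ Arf-/- B-ALL cells that carried luciferase and GFP. The GEO labels call these mice untreated and the paper calls them vehicle treated, and they are named vehicle treated here. In the third group, 3 mice received the same leukemia cells and recombinant mouse IL-12 (rIL-12), injected into the peritoneum once a day, beginning some days after the transfer. No mice without leukemia were given rIL-12, so the cytokine can be compared only among mice with leukemia or together with the leukemia.

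MHC class I molecules show peptides from inside the cell to CD8 T-cells. The proteasome cuts proteins into peptides, the TAP transporter moves these into the endoplasmic reticulum, and tapasin helps to load them onto a heavy chain paired with beta-2 microglobulin. Nearly all nucleated cells carry the pathway, T-cells included, and interferon gamma, which IL-12 is known to induce in T-cells and NK cells, is a known inducer of most of its genes. H2-K1 and H2-D1 encode the classical heavy chains of this strain, Tapbp encodes tapasin, and Psmb9 encodes a catalytic subunit of the immunoproteasome, the form of the proteasome that interferon gamma induces.

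All 4 genes lie in the MHC region of chromosome 17. In the RefSeq annotation of GRCm38.p6, Tapbp spans chr17:33919478-33929290, H2-K1 spans chr17:33996012-34000619, Psmb9 spans chr17:34182030-34187330 and H2-D1 spans chr17:35263094-35267497. The sequence before a listed transcript start of each gene is shown because the heavy chain genes are known to be switched on through an NF-kB element and an interferon response element that lie close together. Each window of 180 bases before a start was searched on both strands for the NF-kB element GGGATTCCC, the interferon response element GAANNGAAA, the CRE-like element TGACGC and the CCAAT box. The listed starts of H2-K1 lie inside its annotated span, which reaches further upstream, so its window lies inside the span too. The motifs were chosen with these sequences known. Capitals mark the matches. Of H2-K1, H2-D1 and H2-M3, a nonclassical heavy chain gene described below, the 30 bases that end with the interferon element are given (H2-K1 at chr17:34000429-34000458 on the minus strand, H2-D1 at chr17:35262923-35262952 and H2-M3 at chr17:37270112-37270141 on the plus strand).
H2-K1: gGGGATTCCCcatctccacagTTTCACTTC
H2-D1: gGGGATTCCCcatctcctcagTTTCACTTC
H2-M3: attcccccatttcctctgaggTTTCACTTC

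H2-K1 and H2-D1 differed at 1 of these 30 bases, and H2-M3 differed from each of them at 16. The stretch began 111 bases before the first of the 2 listed starts of H2-K1 and 171 bases before the start of H2-D1. Over the whole windows, H2-K1 and H2-D1 were identical at 107 of 120 aligned bases (89.2%). Among 32851 windows of the same length from RefSeq, the NF-kB element was present in 59 (0.18%), the interferon response element in 4.42%, the CRE-like element in 5.08% and the CCAAT box in 27.5%. All 4 motifs were present in 3 windows, which were those of H2-D1 and of both starts of H2-K1. The windows of Psmb9 and Tapbp held a CCAAT box and none of the other 3 motifs, which says only that these letters are absent from the windows. Psmb9 is shown whole because it starts 225 bases from Tap1 and points away from it, so that both genes share the stretch (chr17:34187331-34187510, minus strand). Of Tapbp, the last 150 bases before the start are shown (chr17:33919328-33919477, plus strand), which leave out the match 165 bases before the start, within the neighbouring gene Zbtb22.
Psmb9: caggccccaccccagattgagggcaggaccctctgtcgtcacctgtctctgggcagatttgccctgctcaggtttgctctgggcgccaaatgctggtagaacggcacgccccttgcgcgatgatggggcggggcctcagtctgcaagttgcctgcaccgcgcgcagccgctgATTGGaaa
Tapbp: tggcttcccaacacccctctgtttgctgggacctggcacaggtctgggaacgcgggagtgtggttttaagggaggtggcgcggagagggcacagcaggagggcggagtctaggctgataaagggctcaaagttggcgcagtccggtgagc

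Transcripts were measured on the nCounter Mouse Immune Exhaustion panel, in which a color-coded probe hybridizes to each RNA molecule and is counted without amplification. Total counts were between 257613 and 711748 per mouse, lowest in vehicle treated mouse 3. No count was 0. A probe for a viral RNA, which was taken to stand for background, gave 53 to 114 counts per mouse. The 4 genes gave 552 to 17751 counts, so all were well above it. The lowest count of any probe was 5 to 16 per mouse, so the viral probe lies above the floor. Subtracting it can therefore enlarge a fold too much. Values below are TMM-normalized counts, which correct for the depth of each mouse. A gene was called different when the adjusted p (edgeR, quasi-likelihood, adjusted by Benjamini-Hochberg over all 785 probes) was under 0.05 and the change was at least 1.5-fold. Both comparisons with mice without leukemia share the same 3 control mice. An exact permutation test of 3 mice against 3 cannot give a p under 0.1.

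The isolate was checked against T-cell markers. Of the 9 T-cell markers with a probe, 1 was at or below the viral probe in each group with leukemia, and 0 were without leukemia. The summed level of the 9 was 5021 to 8165 without leukemia, 3479 to 4854 with vehicle and 1758 to 3435 with rIL-12. Against mice without leukemia, 8 of these 9 fell with rIL-12, where 68 of all 785 probes were called lower. The median log2 fold change of the 9 was -1.28. The CD8 coreceptor genes Cd8a and Cd8b1 summed to 1354 to 2629 without leukemia, 221 to 950 with vehicle and 198 to 320 with rIL-12. Of 10 myeloid markers, 2 rose with rIL-12 against mice without leukemia, where 8.92% of all probes were called higher. The sums of the 10 ran from 11492 to 13395 without leukemia, from 12481 to 16703 with vehicle and from 12835 to 18288 with rIL-12. The summed level of 9 B-cell markers, which the leukemia cells can also carry, was 1853 to 1930 without leukemia, 2083 to 2353 with vehicle and 1938 to 2137 with rIL-12. The sums of 3 mast cell or basophil markers were 961 to 1096 without leukemia and 1800 to 2116 with vehicle. With rIL-12 they were 1858 to 2125. Of the 3, 2 were called higher in each group with leukemia, although under housekeeping scaling 1 was with rIL-12. Among all 785 probes, 10 were called higher with vehicle and 70 with rIL-12. The part of these shifts in the class I results was not tested. In such isolates a change in the mix of cells and a change in RNA per cell cannot be told apart.

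Psmb9 rose 2.21-fold in rIL-12 treated mice compared with mice without leukemia and was the only one of the 4 genes that was called. H2-K1 was higher in all 3 rIL-12 treated mice than in any other mouse but fell short of 1.5-fold. H2-D1 was not called, and Tapbp was split among the rIL-12 treated mice. In the vehicle comparison 0 of 4 were called by edgeR, where 2.68% of all probes were called. None of the 4 had an unadjusted p under 0.05 there, as 15.2% of all probes had, and DESeq2 called 0. The rIL-12 treated mice had 1 of 4 called against mice without leukemia, where 17.6% of all probes were called and 8.92% were called higher. In rIL-12 against vehicle treated mice edgeR called 0 of 4, where 13.8% of all probes were called. Of the 4, 2 had an unadjusted p under 0.05 there (33% of all probes), and DESeq2 called 0. The median log2 fold change of the 4 genes was 0.38, 0.43 and 0.30 in the 3 comparisons in this order, and that of all probes was 0.05, 0.02 and -0.08.

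**Figure D1:**
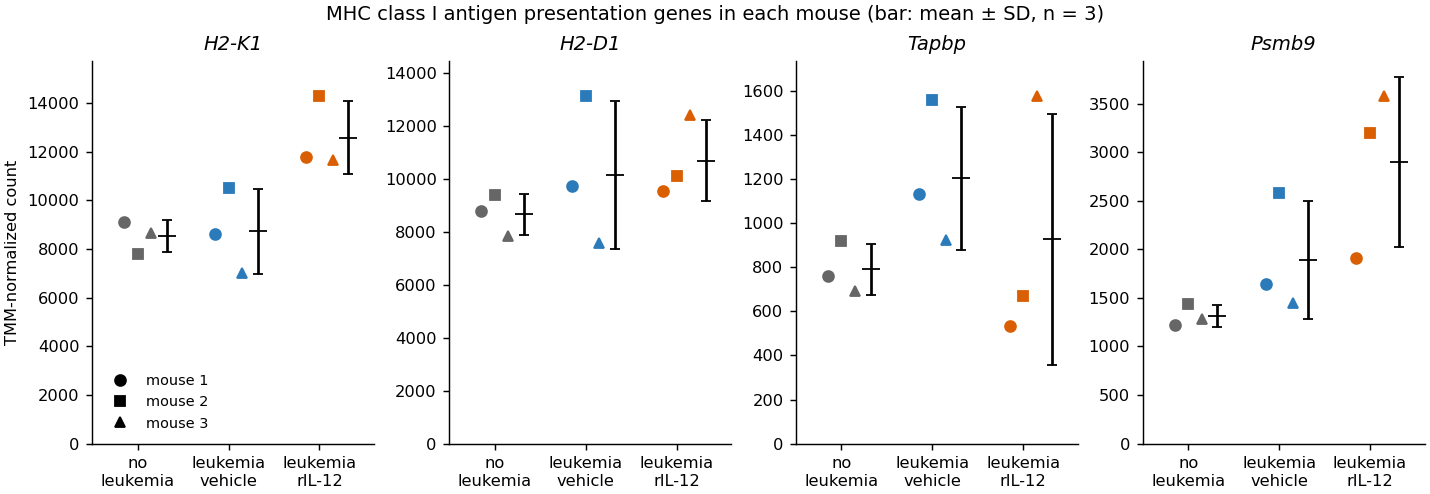
TMM-normalized counts (vertical axes, from 0) of H2-K1, H2-D1, Tapbp and Psmb9 in each of the 9 mice, with 1 symbol per mouse and the mean ± SD of each group (n = 3) beside the points. All 3 rIL-12 treated mice lie above the other mice for H2-K1. For Tapbp, rIL-12 treated mouse 3 at 1579 stands apart from the rest of its group, close to vehicle treated mouse 2 at 1559.

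The heavy chain gene H2-K1 was at 9118, 7813 and 8678 normalized counts in the 3 mice without leukemia. It was at 8631, 10524 and 7032 in the vehicle treated mice and at 11776, 14300 and 11679 in the rIL-12 treated mice. The mice without leukemia lay inside the range of the vehicle treated mice, and the rIL-12 treated mice overlapped neither group. Groups did not overlap for 35.5% of all probes between rIL-12 treated mice and mice without leukemia, and for 30.7% between rIL-12 and vehicle treated mice. The means were 8536 ± 664, 8729 ± 1748 and 12585 ± 1486 (SD, n = 3 each). Against mice without leukemia, the log2 fold change was 0.03 ± 0.18 (SE) with vehicle (edgeR's adjusted p = 0.964). With rIL-12 it was 0.56 ± 0.18 (edgeR's adjusted p = 0.0469), a 1.47-fold change, which passed the test and not the fold threshold. That p was 0.0622 in edgeR with the replicate block, 0.0648 with median scaling and 0.333 with housekeeping scaling. Between rIL-12 and vehicle treated mice it was 0.53 ± 0.18 (edgeR's adjusted p = 0.0642). Without rIL-12 treated mouse 3, H2-K1 was called against mice without leukemia, with a log2 fold change of 0.61.

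The second heavy chain gene, H2-D1, was at 8774, 9374 and 7825 normalized counts without leukemia. The vehicle treated mice had 9741, 13138 and 7596, and the rIL-12 treated mice had 9527, 10124 and 12426. Vehicle treated mice held both the highest and the lowest value of the 9, and the rIL-12 treated mice lay above the mice without leukemia with no overlap. The same held, with rIL-12 higher, for 18.9% of all probes. The log2 fold change was 0.23 ± 0.20 with vehicle and 0.30 ± 0.20 with rIL-12 against mice without leukemia (edgeR's adjusted p = 0.689 and 0.349). It was 0.07 ± 0.20 between rIL-12 and vehicle treated mice, with a 95% interval of -0.37 to 0.52. H2-D1 passed the threshold in none of the 3 comparisons under any of the settings tried or without any 1 mouse. The probes of H2-K1 and H2-D1 target closely related transcripts, and whether a probe also counts the transcript of the other gene was not tested.

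Tapbp, the peptide-loading chaperone tapasin, was at 759, 920 and 692 normalized counts without leukemia. It was at 1133, 1559 and 922 in the vehicle treated mice. All 3 vehicle treated mice lay above the mice without leukemia, although the lowest of them was at 922 and the highest control mouse at 920, and non-overlapping groups were found for 22.5% of all probes there. The log2 fold change was 0.61 ± 0.34 (edgeR's adjusted p = 0.443). In the rIL-12 treated mice Tapbp was at 532, 670 and 1579. Mice 1 and 2 were the lowest of all 9 mice and mouse 3 was the highest. The log2 fold change of the group was 0.23 ± 0.33 against mice without leukemia (edgeR's adjusted p = 0.717) and -0.38 ± 0.33 against vehicle treated mice (edgeR's adjusted p = 0.459). Both values rested on mouse 3. Without it they were -0.39 (edgeR's adjusted p = 0.211) and -1.005 (edgeR's adjusted p = 0.00375), and in the second case Tapbp was called lower than with vehicle.

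Psmb9, the immunoproteasome subunit, was at 1215, 1432 and 1283 normalized counts without leukemia. It was at 1642, 2580 and 1445 in the vehicle treated mice and at 1910, 3199 and 3579 in the rIL-12 treated mice. Every mouse with leukemia was above every mouse without, although the lowest vehicle treated mouse was at 1445 and the highest control mouse at 1432. Against mice without leukemia, groups did not overlap for 22.5% of all probes with vehicle and 35.5% with rIL-12. Vehicle treated mouse 2 lay between rIL-12 treated mice 1 and 2. With vehicle the log2 fold change was 0.53 ± 0.25, with a 95% interval of -0.01 to 1.07 (edgeR's adjusted p = 0.342). With rIL-12 against mice without leukemia it was 1.14 ± 0.25, with a 95% interval of 0.60 to 1.69 (edgeR's adjusted p = 0.00704), which was the 20th largest increase of the 785 probes. Between rIL-12 and vehicle treated mice it was 0.61 ± 0.25 (edgeR's adjusted p = 0.101). The first call was lost without mouse 1 of the mice without leukemia (1.11, edgeR's adjusted p = 0.0513). It was also lost when counts were scaled by housekeeping genes (0.83, edgeR's adjusted p = 0.0619). Without rIL-12 treated mouse 1, Psmb9 was called higher than with vehicle as well (0.84, edgeR's adjusted p = 0.0361).

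Housekeeping scaling bears on every value with rIL-12, since most of its genes were above 0 in log2 fold change. Against mice without leukemia 10 of the 11 housekeeping genes were, with a median of 0.39, and 3 were called higher. Against vehicle treated mice 10 of the 11 were, with a median of 0.50, and 4 were called higher. Under that scaling the median of all probes with rIL-12 against mice without leukemia was -0.30, and that of the 4 genes was 0.11. H2-D1 and Tapbp were then at -0.011 and -0.037, and H2-K1 at 0.22. With rIL-12 against vehicle the median of the 4 genes turned from 0.30 to -0.11, that of all probes was -0.50, and H2-K1 and Psmb9 were at 0.11 and 0.22.

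**Figure D2:**
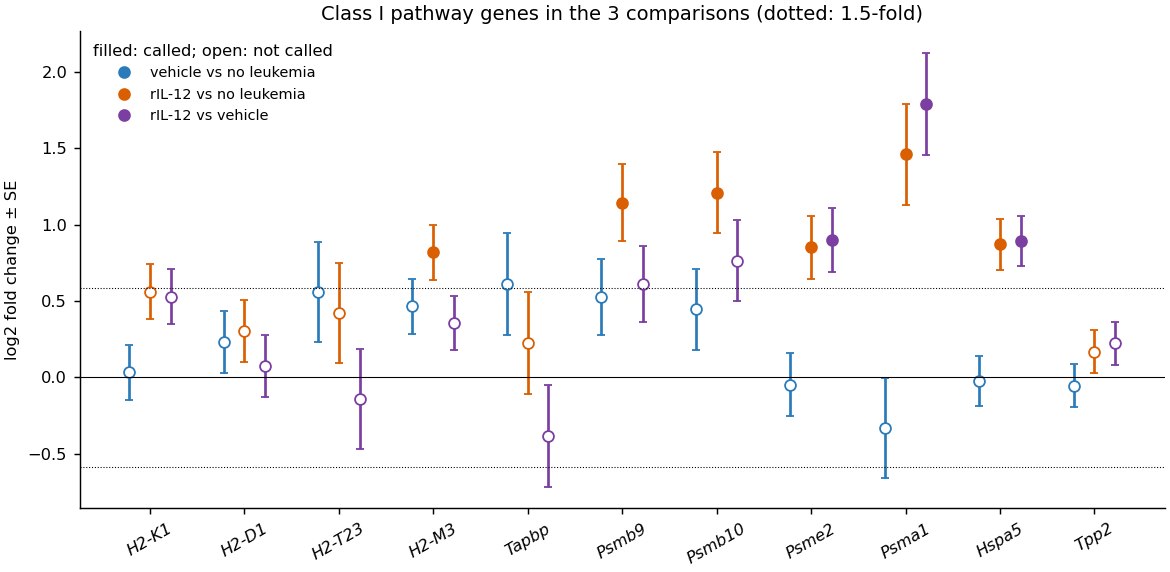
Log2 fold change ± SE (vertical axis) of 11 class I pathway genes in the 3 comparisons, by color, with filled points for genes that were called and open points for the rest. Filled points appear only for rIL-12, against mice without leukemia (Psmb9, Psmb10, Psme2, Psma1, Hspa5 and H2-M3) and against vehicle (Psme2, Psma1 and Hspa5).

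Other genes of the class I pathway were taken from a list of 34, of which 10 had a probe. With vehicle, edgeR and DESeq2 called 0 of the 10, and 1 had an unadjusted p under 0.05. With rIL-12 against mice without leukemia 5 of the 10 rose and none fell, where 8.92% of all probes were called higher. The median of the 10 was 0.62. Under housekeeping scaling 1 of the 5 was called, and 3 were called without mouse 1 of the mice without leukemia. Psmb10, another catalytic immunoproteasome subunit, rose by 1.21 ± 0.27 on the log2 scale (edgeR's adjusted p = 0.00716). It was at 479 to 518 normalized counts without leukemia and at 646, 1338 and 1441 in the rIL-12 treated mice, with mouse 1 again the lowest, as for Psmb9. Psme2, a subunit of the proteasome activator PA28, was at 3416, 5428 and 3565 with rIL-12, against 1919 to 2511 without leukemia and 1826 to 2511 with vehicle. It rose by 0.85 against mice without leukemia and by 0.90 against vehicle treated mice. Psma1, a structural subunit shared by all proteasomes, was at 3532, 5000 and 1576 with rIL-12, and mouse 3 lay close to the highest mouse without leukemia at 1492. Its log2 fold change was 1.46 ± 0.33 against mice without leukemia (edgeR's adjusted p = 0.00812) and 1.79 ± 0.34 against vehicle (edgeR's adjusted p = 0.0137).

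The endoplasmic reticulum chaperone Hspa5 was at 5516 to 7811 in the rIL-12 treated mice, against 3163 to 3877 in the other 6 mice, and rose by 0.87 and 0.89 against mice without leukemia and vehicle treated mice. Tpp2, a peptidase of the cytosol, was not called in any comparison and had log2 fold changes between -0.06 and 0.22. Of the nonclassical heavy chain genes, H2-M3, which presents formylated peptides, was at 271 to 348 without leukemia, 351 to 507 with vehicle and 498 to 613 with rIL-12, and its log2 fold change with rIL-12 against mice without leukemia was 0.82 ± 0.18 (edgeR's adjusted p = 0.00672). H2-T23, which encodes Qa-1 and is seen by NK receptors, was at 459, 763 and 1330 with rIL-12 and at 879, 1265 and 663 with vehicle, and was not called. The difference between the changes of these genes was not tested. H2-Q1, H2-Q2 and H2-Q10 gave 20 to 53 counts, at or below the viral probe in each group mean, so no change of theirs is read. The calls of Psme2, Psma1 and Hspa5 between rIL-12 and vehicle treated mice were lost without vehicle treated mouse 2 (edgeR's adjusted p = 0.0529 for each) or rIL-12 treated mouse 2 (edgeR's adjusted p = 0.0560 to 0.0797), and 1, Hspa5, was kept without vehicle treated mouse 3. Among all probes edgeR called 0, 0 and 4 in these 3 cases. Without vehicle treated mouse 2 the log2 fold changes were 0.96, 1.59 and 0.85, against 0.90, 1.79 and 0.89 with all mice. Against vehicle, only Psma1 of the 10 was called under housekeeping scaling or under quantile normalization. These settings called 24 and 21 of all probes higher there, against 67 in the main fit.

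The ratio of a pair of probes within 1 mouse does not depend on scaling between mice. The ratio of counts of Psmb9 over Psmb10 ran from 2.48 to 2.97 without leukemia, from 2.64 to 2.98 with vehicle and from 2.39 to 2.96 with rIL-12. The ratio of these immunoproteasome subunits overlapped among all 3 groups. H2-K1 over H2-D1 ran from 0.833 to 1.11 without leukemia and from 0.801 to 0.926 with vehicle, and was 1.24, 1.41 and 0.940 in the rIL-12 treated mice. Mice 1 and 2 of that group were above all other mice and mouse 3 was within their range. Psmb9 over Tapbp ran from 1.56 to 1.85 without leukemia, from 1.45 to 1.65 with vehicle, and from 2.27 to 4.77 with rIL-12, so all rIL-12 treated mice were above the rest. Tapbp over H2-T23 ran from 1.22 to 1.28, from 1.23 to 1.39 and from 0.879 to 1.19 in the 3 groups. Tapbp over H2-D1 was 0.116 to 0.121 in the vehicle treated mice, above the 0.0865 to 0.0982 without leukemia, and ran from 0.0558 to 0.127 with rIL-12, below and above both other groups. These ratios are descriptions and were not tested, and probes differ in how well they bind, so a ratio is read only between mice.

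**Figure D3:**
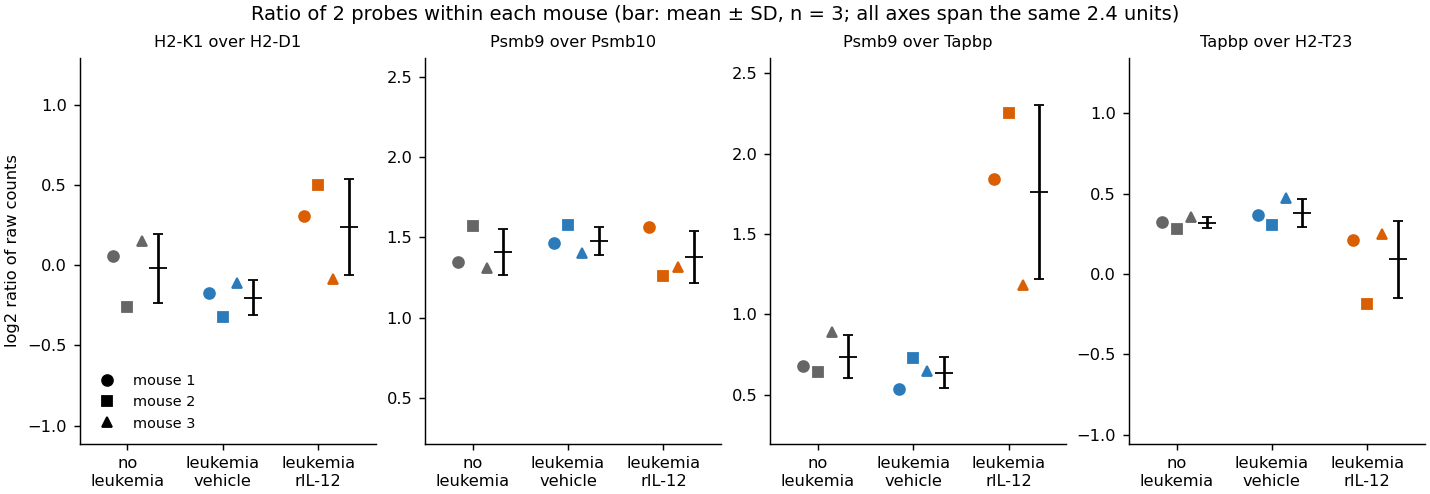
Log2 ratio of the raw counts of 2 probes in each mouse (vertical axes, each spanning the same range), with 1 symbol per mouse and the mean ± SD of each group (n = 3). Psmb9 over Psmb10 overlaps in all groups, and Psmb9 over Tapbp is higher in all 3 rIL-12 treated mice than in the other 6.

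Over the 9 mice, the log2 levels of Psmb9 and Psmb10 had a Pearson r of 0.98, those of Tapbp and H2-T23 an r of 0.94, and those of H2-K1 and Psme2 an r of 0.96. H2-K1 and Tapbp had an r of -0.10. Psmb9 was at 0.80 with both heavy chain genes. These are descriptions over 9 mice that share groups, scaling and cell mix, and the first 2 stayed at 0.97 under housekeeping scaling, while H2-K1 with Psme2 was at 0.80 and H2-K1 with Tapbp at 0.28. By the same measure, the probes most like the mean of the 4 genes were Ldha, which encodes lactate dehydrogenase (0.97), Lgals9, which encodes galectin-9 (0.96), Cd274, which encodes PD-L1 (0.95), a probe that matched no gene symbol (0.94), and Xaf1, an interferon-inducible gene (0.93). Under housekeeping scaling Lgals9 and Xaf1 were at 0.86 and 0.85 and ranked 12th and 13th, and the other 3 were at 0.95 to 0.96. The mean of the 4 genes, centred on the 9 mice, was highest in rIL-12 treated mouse 3 (0.58) and vehicle treated mouse 2 (0.44) and lowest in mouse 3 without leukemia (-0.36). Under housekeeping scaling vehicle treated mouse 2 was the highest (0.62, with rIL-12 treated mouse 3 at 0.54) and rIL-12 treated mouse 1 the lowest (-0.46).

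**Figure D4:**
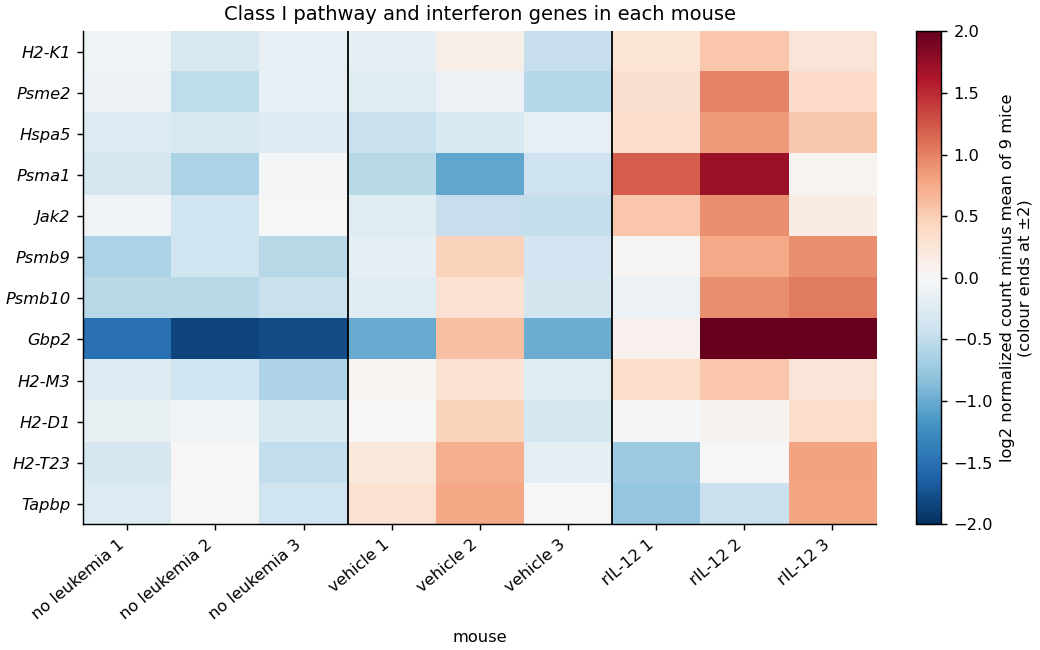
Log2 normalized count of 12 class I pathway and interferon genes (vertical axis) in each of the 9 mice (horizontal axis), as the difference from the mean of the 9 mice. Psmb9, Psmb10 and Gbp2 are highest in rIL-12 treated mice 2 and 3, Psma1 and Jak2 in rIL-12 treated mice 1 and 2, and Tapbp in vehicle treated mouse 2 and rIL-12 treated mouse 3.

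Regulators of class I genes were taken from a list of 28, of which 12 had a probe. With rIL-12 against mice without leukemia 3 rose and none fell, where 17.6% of all probes were called and 8.92% were called higher. Ifng, which encodes interferon gamma, was at 149, 488 and 304 normalized counts with rIL-12 and at 93.4 to 138 without leukemia (log2 fold change 1.39 ± 0.34, edgeR's adjusted p = 0.0113). Without leukemia it gave 88 to 136 counts, close to the viral probe, and with that probe subtracted the log2 fold change was 2.84. Jak2, a kinase of the interferon gamma and IL-12 receptors, was at 966 to 1661 with rIL-12, 662 to 867 without leukemia and 623 to 735 with vehicle, and rose by 0.73 on the log2 scale against mice without leukemia and by 0.97 against vehicle treated mice. The calls of Ifng and Jak2 against mice without leukemia were lost without mouse 1 of that group or without rIL-12 treated mouse 2, and that of Jak2 also without mouse 2 of that group. Against vehicle treated mice the call of Jak2 was lost without vehicle treated mouse 2 or 3 or without rIL-12 treated mouse 2.

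With vehicle, 1 of the 12 was called against mice without leukemia (2.68% of all probes were). This was Nfkb2, an NF-kB subunit, at 529 to 617 with vehicle and 353 to 414 without leukemia (log2 fold change 0.63 ± 0.15, edgeR's adjusted p = 0.0423). That call was lost without any 1 of 7 mice and kept only without vehicle treated mouse 1 or rIL-12 treated mouse 3. Under the replicate block its adjusted p from edgeR was 0.0616. Tyk2, a kinase of the IL-12 and type I interferon receptors, was lower with rIL-12 than with vehicle (log2 fold change -0.75 ± 0.22, edgeR's adjusted p = 0.0411), at 287 to 478 against 515 to 768, with a call that was kept without only 2 of the 9 mice and lost under the replicate block (edgeR's adjusted p = 0.0599).

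Interferon-inducible genes outside the class I pathway were taken from a list of 41, of which 13 had a probe. With vehicle, edgeR and DESeq2 called 0, and 1 had an unadjusted p under 0.05. With rIL-12, 4 rose against mice without leukemia and 3 against vehicle, where 17.6% and 13.8% of all probes were called in either direction. The 4 became 7 when rIL-12 treated mouse 1 was left out and 2 when control mouse 1 was. Calls among all probes in that comparison also moved without 1 mouse, from 66 to 194, against 138 with all mice. Gbp2, a guanylate-binding protein, was at 488, 6126 and 3056 with rIL-12, at 229, 703 and 232 with vehicle and at 127 to 163 without leukemia. Vehicle treated mouse 2 had the highest vehicle values of all 4 class I genes. It was above rIL-12 treated mouse 1 for Gbp2, as it was for H2-D1, Tapbp and Psmb9 but not for H2-K1. The log2 fold change of Gbp2 with rIL-12 was 4.50 ± 0.73 against mice without leukemia (edgeR's adjusted p = 0.00102). Cxcl9, a chemokine, rose by 2.66 and Bst2, a membrane protein that tethers viruses, by 1.13 in the same comparison. Cxcl9 gave 91 to 138 counts and Gbp2 126 to 154 without leukemia, close to the viral probe, and with that probe subtracted their log2 fold changes were 4.61 and 5.93.

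MHC class II genes, which present peptides from outside the cell and are not a feature of resting mouse T-cells, had a probe for 8 of 11. With vehicle, edgeR and DESeq2 called 0, and 1 had an unadjusted p under 0.05. A model of only these groups called 3 class II genes and Gbp2 there. That model called 63 of all 785 probes, 25 of them higher, against 21 and 10 in the main fit. With rIL-12 against mice without leukemia 6 rose and 1 fell, with a median of 1.18, where 17.6% of all probes were called. H2-Aa was at 1622, 3085 and 625 with rIL-12 against 272 to 284 without leukemia (log2 fold change 2.68 ± 0.41, edgeR's adjusted p = 0.000798), and H2-Ab1 rose by 2.67 (3.94 with the viral probe subtracted). H2-Eb1 was called higher too, at 127 to 325 with rIL-12, but it gave 41 to 56 counts without leukemia, at or below the viral probe in the group mean, so no fold is given. In H2-Aa, H2-Ab1 and H2-Eb1, rIL-12 treated mouse 3 had the lowest value of its group, while it had the highest of the group for H2-D1, Tapbp and Psmb9. For H2-K1 this mouse was the lowest of its group, at 11679 beside mouse 1 at 11776. The difference between the class I and class II changes was not tested. Calls against vehicle among the regulators, interferon-inducible and class II genes were all lost without vehicle treated mouse 2, vehicle treated mouse 3 or rIL-12 treated mouse 2, where edgeR called 0, 4 and 0 of all probes. Among receptors that bind MHC class I, 7 of 20 had a probe. Cd8a and Cd8b1 fell in both groups with leukemia against mice without (Cd8b1 by -2.15 with vehicle and -3.12 with rIL-12 on the log2 scale). Cd8a gave 342 to 556 counts without leukemia and 74 to 102 with rIL-12, where the viral probe gave 87 to 105, so no fold is given for it. Klrd1, a partner of NKG2 receptors that bind Qa-1, fell by 1.83 with rIL-12 against mice without leukemia. Klrk1, the receptor NKG2D for class I-like ligands, rose by 1.43 in that comparison. Of the 7, 1 was called higher and 3 lower there, where 17.6% of all probes were called. Klrd1 was at 511 to 846 without leukemia, 192 to 508 with vehicle and 144 to 233 with rIL-12. Between rIL-12 and vehicle treated mice 0 of the 7 were called lower.

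**Figure D5:**
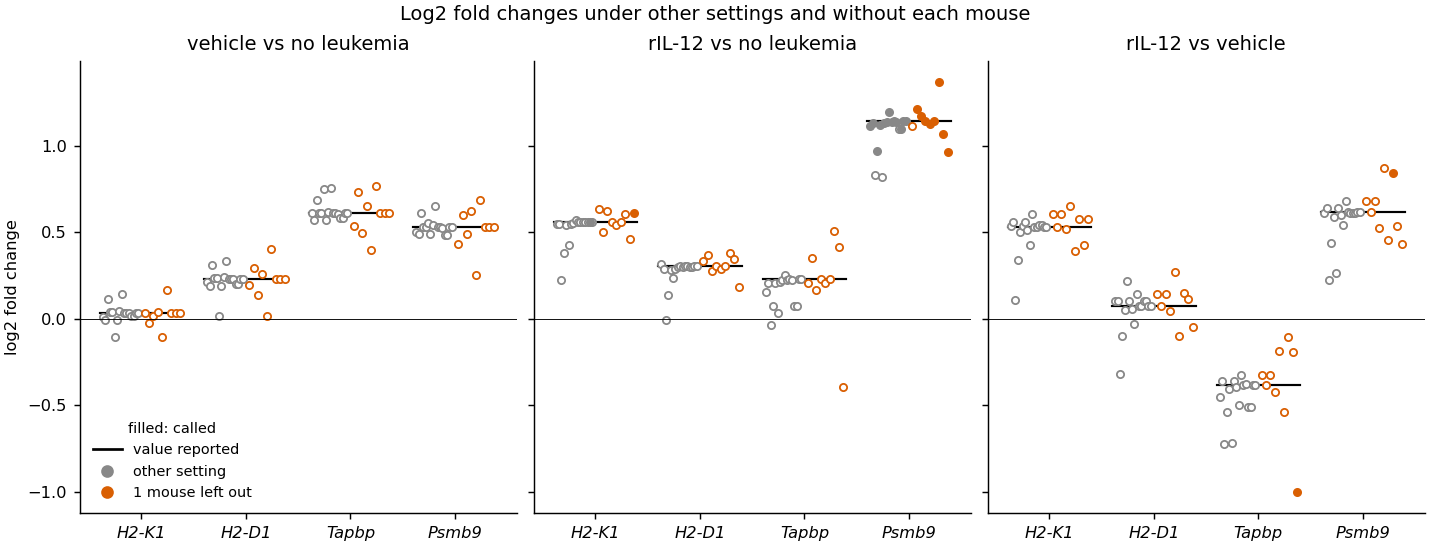
Log2 fold change (vertical axes) of the 4 genes in the 3 comparisons, with the value given in the text as a line, 16 other settings in grey and each of 9 mice left out in orange, and filled points where the gene was called. Psmb9 stays between 0.82 and 1.37 with rIL-12 against mice without leukemia, and 1 orange point of Tapbp falls to -0.39 there and 1 to -1.005 against vehicle, both without rIL-12 treated mouse 3.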

How the data were processed

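The authors deposited raw counts, whole numbers of barcodes per probe and mouse for 785 probes, and the nSolver normalization that the methods name is not in these values. Groups were taken from the GEO labels, with 3 mice in each. Probes were matched to gene symbols through their RefSeq transcripts (751 matched, 34 did not). With R 4.3.3 and edgeR 4.0.16, TMM factors were computed and 1 quasi-likelihood fit was made to all 9 mice (prior count 1, no filter, no replicate block), and p-values were adjusted over all probes. Mice of 1 group differed beyond counting error, so precision is set by their number. Same-numbered mice deviated together with r between -0.18 and 0.33, so the numbers were not taken as pairs, although the 3 pairs of mice without leukemia and vehicle treated mice were at 0.11 to 0.25. Nothing states whether numbers mark a shared cage or day. The fits were tested on simulated data. Alternatives were other scalings, DESeq2 1.42.0, the methods' t-test, filters, thresholds and leaving out each mouse. All 4 genes with a probe were named, with any matched class I pathway gene or regulator, the most changed interferon-inducible and class II genes, and 5 probes by likeness, while the values of some named genes are not reported here. The receptor list, the genes of the plots and the pairs of genes for ratios were taken by role. The members and lists were chosen with earlier results of these data known. Sequences are from RefSeq (GRCm38.p6), and plots were drawn with matplotlib 3.10.9.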

Additional observations from a re-analysis of the deposited data

How the results depend on the processing

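Of the 4 class I genes, 0 were called in vehicle treated mice against mice without leukemia under all 16 settings and without each mouse. With rIL-12 against mice without leukemia the number was 1 (Psmb9). It became 0 under housekeeping scaling, quantile normalization and the adjusted p of the methods' t-test. That t-test called 0 of all 785 probes there. Housekeeping scaling called 20 probes higher and quantile normalization 38, against 70 in the main fit. The number of class I genes called was 2 with no fold threshold (H2-K1 added) and 0 to 2 without 1 mouse. Against vehicle it was 0 under all 16 settings and 0 to 1 without 1 mouse. The replicate block left these numbers at 0, 1 and 0 and the calls among all probes at 20, 125 and 98, against 21, 138 and 108. H2-K1 with vehicle against mice without leukemia was at -0.010 with median scaling, -0.0099 with DESeq2, -0.11 with quantile normalization, and -0.11 to 0.17 without 1 mouse. H2-D1 with rIL-12 against vehicle was at -0.32 with housekeeping scaling, -0.10 with total count scaling, -0.031 with the viral probe subtracted, and -0.10 to 0.27 without 1 mouse. With rIL-12 against mice without leukemia, housekeeping scaling put H2-D1 at -0.011 and Tapbp at -0.037. Without 1 mouse Tapbp ran from -0.39 to 0.51 and H2-T23 from -0.055 to 0.72 there, and H2-T23 from -0.62 to 0.16 against vehicle. Calls among all probes with vehicle were 3 under housekeeping scaling, 52 with DESeq2, 1 with the viral probe subtracted and 63 in a model of only these groups. With rIL-12 against vehicle they were 239, 149, 63 and 27. Causes were not tested. With 3 mice a group, changes of the size seen for H2-D1 could not be told from 0.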
